A study of Mus musculus with 15 samples.

Results

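The mesenchymal and limb patterning transcription factors *Twist1*, *Twist2*, *Prrx1*, *Prrx2*, *Tbx5*, *Tbx15*, *Tbx18*, *Tcf21*, *Foxf1* and *Pitx1* were followed in 15 populations of mouse embryonic fibroblasts profiled by RNA-seq. Members were the transcription units whose gene name in the authors' FPKM table (fragments scaled to transcript length and library size) held 1 of these 10 symbols. This gave 19 of 65522 units and 9 of the 10 genes. *Foxf1* was not analysed here. All cells were from female C57BL/6 mice, and the study asked how loss of CIZ1, a nuclear matrix protein found at the inactive X chromosome, and adaptation to culture alter gene expression. Fibroblasts came from single embryos at days 13 to 14 of gestation and are named by embryo (E14.4 and so on).

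There were 3 primary WT (CIZ1 +/+) populations, grown for fewer than 5 passages, and the 3 adapted WT lines derived from them (E14.4, E13.1 and E13.8). Among untreated primary CIZ1 -/- populations, 2 carried no transgene (E14.2 and E13.15) and E13.17 carried a doxycycline-inducible CIZ1 transgene. These 3 made up the primary CIZ1 null group, and the 3 lines derived from them the adapted CIZ1 null group. The sample label of the adapted E13.17 line reads CIZ1 -/-, and the study's list of cell lines gives it the inducible transgene. A further transgenic null primary population was untreated (S13), and 2 were given doxycycline at 5 to 10 µg/ml (S14 and S15). The study names E13.17 and E14.19 as the embryos with the transgene, but which of S13, S14 and S15 came from which embryo is not given in the sources used here. The null allele is a gene trap, and an adapted line is a single culture-derived population. WT values are given below in the order E14.4, E13.1, E13.8 and CIZ1 null values in the order E14.2, E13.15, E13.17.

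The genes studied here encode proteins that bind DNA and set the identity and position of mesenchyme, the loose embryonic connective tissue from which such fibroblasts are grown. TWIST1, TWIST2 and TCF21 are basic helix-loop-helix (bHLH) factors that act as dimers with the widely expressed E proteins. PRRX1 and PRRX2 are paired-related homeobox proteins of limb and facial mesenchyme. TBX5, TBX15 and TBX18 are T-box proteins, of which TBX5 marks the forelimb field, while the homeobox protein PITX1 marks the hindlimb field. FOXF1 is a forkhead protein of visceral mesenchyme.

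The members include 2 paralogous pairs whose levels parted in some lines, and the 250 bases before the RefSeq start of each of these 4 genes are shown to place them. The table used here held 6 of the members. It held no entry for *Tbx5*, *Tbx15*, *Foxf1* or *Pitx1*. Capitals mark matches to 3 motifs searched, namely CANNTG (the E-box, which reads the same on both strands), TATAAA and CCAAT (both strands).

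Twist1 promoter (GRCm38.p6, chr12:33957421-33957670, plus strand): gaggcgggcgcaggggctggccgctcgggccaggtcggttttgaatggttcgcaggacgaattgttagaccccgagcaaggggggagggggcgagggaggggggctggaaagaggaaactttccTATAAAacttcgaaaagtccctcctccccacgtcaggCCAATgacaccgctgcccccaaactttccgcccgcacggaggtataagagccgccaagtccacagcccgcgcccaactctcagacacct
Twist2 promoter (GRCm38.p6, chr1:91801211-91801460, plus strand): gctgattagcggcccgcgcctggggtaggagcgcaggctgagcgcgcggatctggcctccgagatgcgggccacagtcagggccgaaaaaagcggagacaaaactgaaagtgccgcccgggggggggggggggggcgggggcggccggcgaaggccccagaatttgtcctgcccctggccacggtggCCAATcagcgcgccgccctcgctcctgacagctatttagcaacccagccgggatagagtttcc
Prrx1 promoter (GRCm38.p6, chr1:163313651-163313900, minus strand): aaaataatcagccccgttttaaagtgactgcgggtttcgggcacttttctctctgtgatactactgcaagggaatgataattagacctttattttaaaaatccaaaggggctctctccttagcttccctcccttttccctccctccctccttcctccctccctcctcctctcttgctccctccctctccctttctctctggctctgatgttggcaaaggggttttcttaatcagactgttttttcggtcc
Prrx2 promoter (GRCm38.p6, chr2:30845117-30845366, plus strand): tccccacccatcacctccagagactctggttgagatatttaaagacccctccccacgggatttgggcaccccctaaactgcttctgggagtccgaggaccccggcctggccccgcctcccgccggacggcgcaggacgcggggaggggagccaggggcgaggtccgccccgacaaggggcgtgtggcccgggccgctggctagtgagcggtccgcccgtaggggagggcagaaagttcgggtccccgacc

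The *Twist1* stretch held 1 TATAAA and 1 CCAAT match, that of *Twist2* held 1 CCAAT match, and those of *Prrx1* and *Prrx2* held no match. None of these 4 held CANNTG, which occurs in 66.2% of the 32851 stretches of this length in the table. TATAAA occurs in 12.4% of them and CCAAT in 33.9%. The stretches of *Twist1*, *Twist2* and *Prrx2* held 18, 23 and 21 CpG dinucleotides and that of *Prrx1* held 4, against a median of 6 in the table. A match is a description of letters and says nothing on its own about binding.

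Most loci appear in the authors' assembly as a unit on the annotated strand of the gene and, with the same coordinates, units on the other strand. The kit does not mark strand, so reads of both cannot be told apart, and the unit on the annotated strand is taken as the gene's value unless stated. In GRCm38 these units span chr12:33957671-33960051 (*Twist1*), chr1:91798528-91866543 (*Twist2*, a locus shared with *Gm29101* and *Gm29100*), chr1:163244720-163314476 (*Prrx1*, shared with *Gm20471*, *Gm26523* and *Gm37644*) and chr2:30834972-30884208 (*Prrx2*). The T-box units span chr5:119832220-119885219 (*Tbx5*), chr3:99240381-99354511 (*Tbx15*) and chr9:87702798-87732187 (*Tbx18*), and the others chr10:22814988-22822027 (*Tcf21*) and chr13:55825050-55836192 (*Pitx1*, named together with *Gm28760*). Each span covers the whole gene, exons and introns together. The promoter stretches shown for *Twist2*, *Prrx1* and *Prrx2* lie inside these spans, and that of *Twist1* lies before its span.

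*Ciz1* followed the labels, at 19.0 to 25.0 FPKM in primary WT, 18.7 to 24.1 in adapted WT, 0.0546 to 0.724 in all untreated CIZ1 null populations, and 296 and 191 with doxycycline. Read counts were not among the files used, so depth is known only relative to the primary WT E14.4 library, from the spacing of the lowest FPKM values. It was estimated at 1 to 1.62 times that library in primary WT, 0.618 to 1.18 in adapted WT, 1.21 to 1.45 in primary null and 0.539 to 0.895 in adapted null populations. For S13, S14 and S15 it was 0.481, 1.17 and 0.872. Fibroblast identity was checked with 10 markers, each of which was at 1 FPKM or more in at least 1 population of every group. Their summed level was 10815 to 10953 FPKM in primary WT, 3103 to 6506 in adapted WT, 10019 to 10788 in primary null and 3241 to 5499 in adapted null populations. In transgenic null cells it was 9628 to 10165 FPKM untreated and 6339 to 7938 with doxycycline. For doxycycline the median log2 difference of these 10 markers was -0.72, and 0 of 10 passed by limma, beside 0.0101% of all units. At an unadjusted p under 0.05 by limma there were 2 of 10 markers, beside 1.76% of all units. Summed markers of epithelium (6 genes) reached at most 6.92 FPKM, of endothelium (5 genes) 2.55 and of leukocytes and macrophages (5 genes) 15.9, the last in primary null cells and at most 4.19 in adapted lines. Summed skeletal muscle markers (6 genes) were at 3.79 to 11.5 FPKM in primary populations and at most 0.223 in adapted lines, which was nearly all *Des*, while *Myod1*, *Myf5*, *Pax7* and *Ckm* were listed at 0 throughout. Neural and glial markers (4 genes) summed to 5.13 to 22.7 FPKM in primary populations and 0.488 to 7.78 in adapted lines, with *Nes* the main part in all primary populations. Cartilage markers (4 genes) summed to 3.12 to 11.2 and 0.314 to 18.4 FPKM, and adipocyte markers (4 genes) to 3.33 to 22.4 and 6.39 to 63.3. In such bulk samples fewer cells of a type and less RNA per cell cannot be told apart. The part of these marker changes in the results below was not tested.

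In primary WT cells *Twist2*, *Prrx1* and *Prrx2* were the most abundant members, with median FPKM of 144, 86.8 and 87.5. Their ranges overlapped one another, so their order was not resolved. *Twist1* followed at a median of 27.0 and *Tbx15* at 20.3, with ranges that did not overlap (22.1 to 31.1 and 15.3 to 21.3). *Pitx1* (median 5.25) overlapped *Tbx18* (2.91), and *Tbx5* (1.52) lay below every *Tbx18* value. FPKM is scaled to length, which permits this ordering for the units on the annotated strand. Reads of genes with a unit on each strand are divided between them, so the order and overlaps need not hold for whole genes. In primary WT cells the unit on the other strand was at 12.8 to 16.4 FPKM for *Twist1* and 11.8 to 19.1 for *Tbx15*. For *Tbx18* it was at 0.561 to 0.820 FPKM, and those of *Pitx1* were at 1.37 to 3.24 and 1.78 to 6.17. *Tcf21*, a bHLH gene of visceral and cardiac mesenchyme, was essentially not measured. Its unit was listed at 0 in 12 of the 15 populations and reached 0.192, 0.0881 and 0.197 in the primary null E13.15, adapted null E13.15 and S14 populations. Its 3 units on the other strand were above 0 in 1 population each, at 0.185 or less, and it entered no test.

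**Figure D1:**
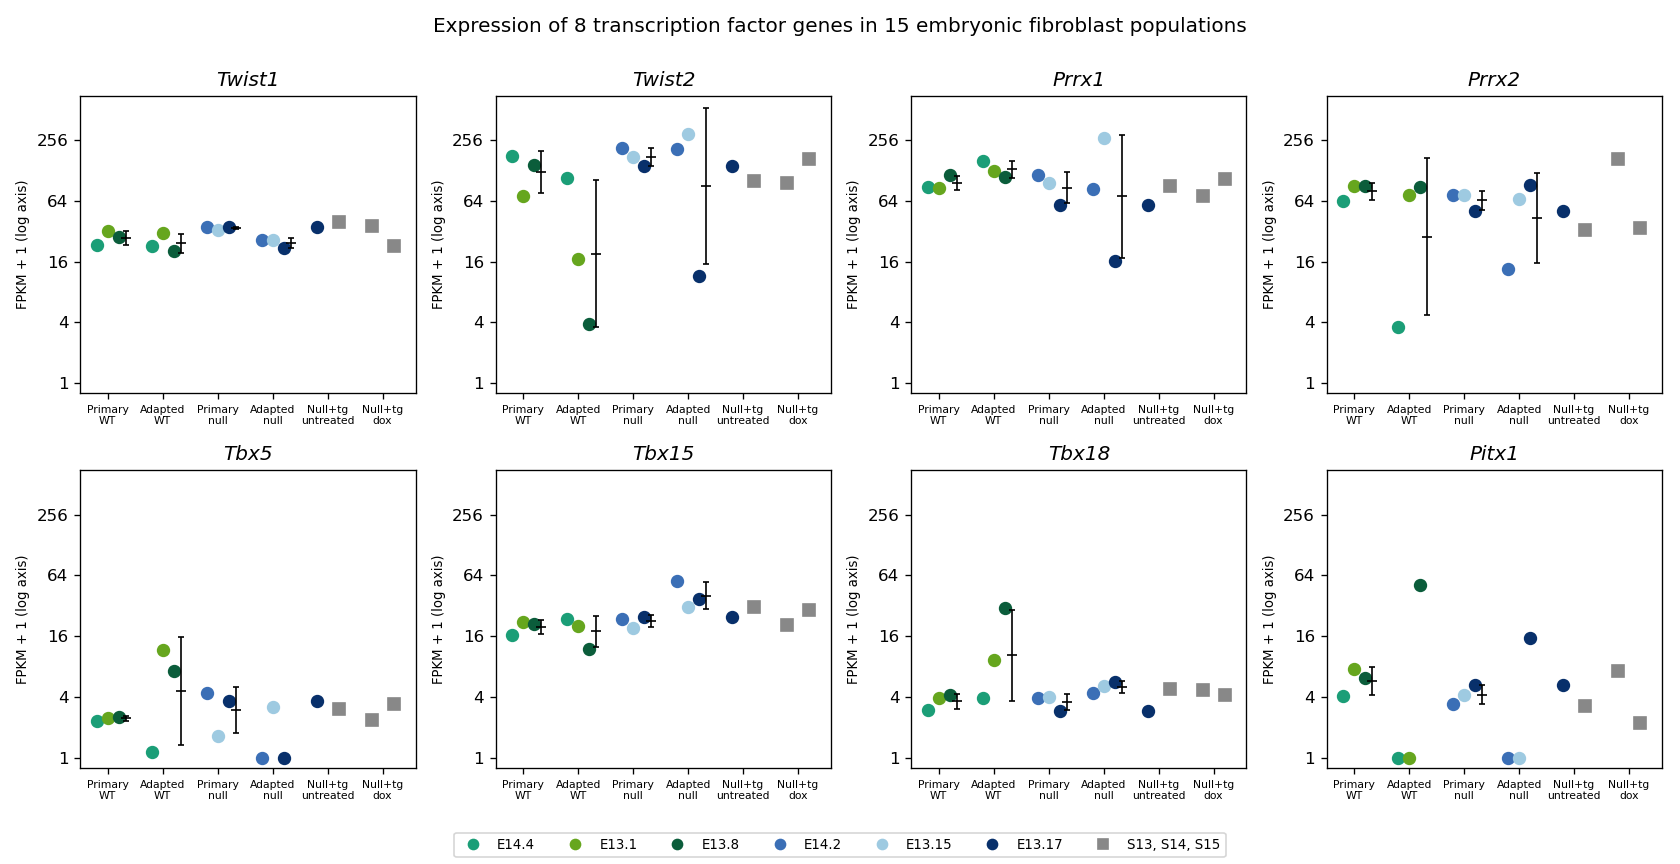
FPKM + 1 (log axis, the same in every panel) of the unit on the annotated strand of 8 genes in 6 groups, with 1 point per population coloured by embryo; grey squares are S13, S14 and S15, the E13.17 transgenic population appears in the primary null and in the untreated transgenic group, and bars are the mean ± SD on the log2 scale for groups of 3 with no value listed at 0. *Twist1* stays between 19.3 and 38.1 FPKM in all 15 populations, whereas *Twist2* falls to 2.82 and 10.6 FPKM in 2 adapted lines.

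The bHLH pair behaved differently across lines. *Twist1*, required for cranial and limb mesenchyme, was measured at 22.1, 31.1 and 27.0 FPKM in primary WT cells and at 22.0, 29.8 and 19.3 in the adapted WT lines. In CIZ1 null cells it was at 33.8, 32.2 and 34.3 before and 25.1, 25.4 and 20.6 after adaptation. All 6 adapted lines were below their parent population in the deposited values, with differences in log2(FPKM + 1) from -0.0054 to -0.71. Quantile normalization moved the median WT difference of all units from -0.05 to 0.06 and the mean difference of *Twist1* in WT cells to -0.0046. The WT groups overlapped, and the null groups did not.

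*Twist2*, a paralogue with roles in skin and facial mesenchyme, was at 176, 71.0 and 144 FPKM in primary WT cells and at 107, 15.8 and 2.82 in the lines derived from them. The null populations had 210, 172 and 141 FPKM before and 207, 291 and 10.6 after adaptation. Within the adapted groups the highest *Twist2* value was 37.8 times the lowest in WT and 27.4 times in null lines, compared with 1.54 and 1.24 times for *Twist1*. The low values belonged to WT E13.8, WT E13.1 and null E13.17, while null E13.15 held the highest value of the series. The fibroblast surface marker *Thy1* was listed at 0 in adapted WT E13.8 and was at 0.215 FPKM in adapted null E13.17, compared with 168 to 979 FPKM in the other 13 populations. Fibroblast markers did not move together in these lines. *Col3a1* was at 1063 and 532 FPKM in them, against 10.0 to 159 in the other adapted lines. *Vim* was at 1013 and 677 FPKM, against 1000 to 2289.

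The levels of the paired-related homeobox genes also differed between lines. *Prrx1*, a broad marker of limb mesenchyme, was at 86.8, 85.0 and 115 FPKM in primary WT cells and at 159, 124 and 110 after adaptation. Its levels in CIZ1 null cells were 113, 94.9 and 56.7 FPKM before and 81.8, 264 and 15.3 after adaptation. Adapted null lines thus ranged over 17.2 times, with E13.15 highest and E13.17 lowest, whereas the adapted WT lines ranged over 1.45 times.

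*Prrx2*, expressed with *Prrx1* in much of the limb and face, was at 62.2, 87.5 and 88.2 FPKM in primary WT cells and at 2.58, 71.7 and 85.6 in adapted WT lines. It was at 71.4, 72.2 and 49.5 FPKM in primary null cells and at 12.5, 65.7 and 89.9 in adapted null lines. Low *Prrx2* was therefore seen in the adapted lines of WT E14.4 and null E14.2, which kept *Twist2* at 107 and 207 FPKM. The adipocyte marker *Fabp4* was at 42.5 and 57.2 FPKM in these 2 lines and at most 15.7 in the other 13 populations, and its part was not tested. The rest of the adipocyte list did not follow *Fabp4*. In these 2 lines *Pparg* was at 3.08 and 6.08 FPKM, against up to 6.69 elsewhere, and *Adipoq* and *Plin1* were at 0.0621 or less. The adapted null E13.17 line, lowest for *Prrx1*, had the highest *Prrx2* value of its group.

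The T-box genes differed from one another in how their levels changed. *Tbx15*, which acts in skeletal and dermal mesenchyme, was at 15.3, 21.3 and 20.3 FPKM in primary WT cells and 22.8, 19.0 and 11.1 in adapted WT lines. In null cells it was at 22.8, 18.2 and 24.0 FPKM before and 56.0, 30.1 and 36.2 after adaptation. Every adapted null line lay above every WT population and every primary null population.

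*Tbx18*, known from somite, limb and heart mesenchyme, was at 2.00, 2.91 and 3.16 FPKM in primary WT cells and 2.91, 8.27 and 29.6 after adaptation. In null cells it was at 2.97, 3.00 and 1.89 FPKM before and 3.36, 4.21 and 4.71 after. It was higher in the adapted line than in the parent population for all 6 embryos, by 0.14 to 2.88 on the log2 scale. The difference was largest in WT E13.8, the line with the lowest *Twist2* value.

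*Tbx5*, the forelimb gene, was low in primary cells, at 1.32, 1.52 and 1.56 FPKM in WT and 3.39, 0.656 and 2.65 in null populations. After adaptation it was at 0.138, 10.6 and 6.27 FPKM in WT lines, and in null lines it was listed at 0 in E14.2 and E13.17 and at 2.22 in E13.15. Adapted lines thus lay on both sides of their parents, with 3 of 6 higher.

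The hindlimb gene *Pitx1* was at 3.08, 6.53 and 5.25 FPKM in primary WT cells and 2.43, 3.17 and 4.34 in primary null cells. It was listed at 0 in 4 of the 6 adapted lines (WT E14.4 and E13.1, null E14.2 and E13.15) and reached 50.5 FPKM in WT E13.8 and 14.4 in null E13.17. Of the 4 libraries with *Pitx1* listed at 0, that of WT E14.4 was estimated at a relative depth of 1.18 against 1 for its parent, and the others were shallower than their parents, at 0.618 against 1.62 (WT E13.1), 0.539 against 1.34 (null E14.2) and 0.895 against 1.21 (null E13.15). The 2 *Pitx1* units on the other strand gave the same picture, at 21.7 and 31.9 FPKM in adapted WT E13.8, 7.67 and 7.38 in adapted null E13.17, and at most 0.0231 in the other 4 adapted lines.

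**Figure D2:**
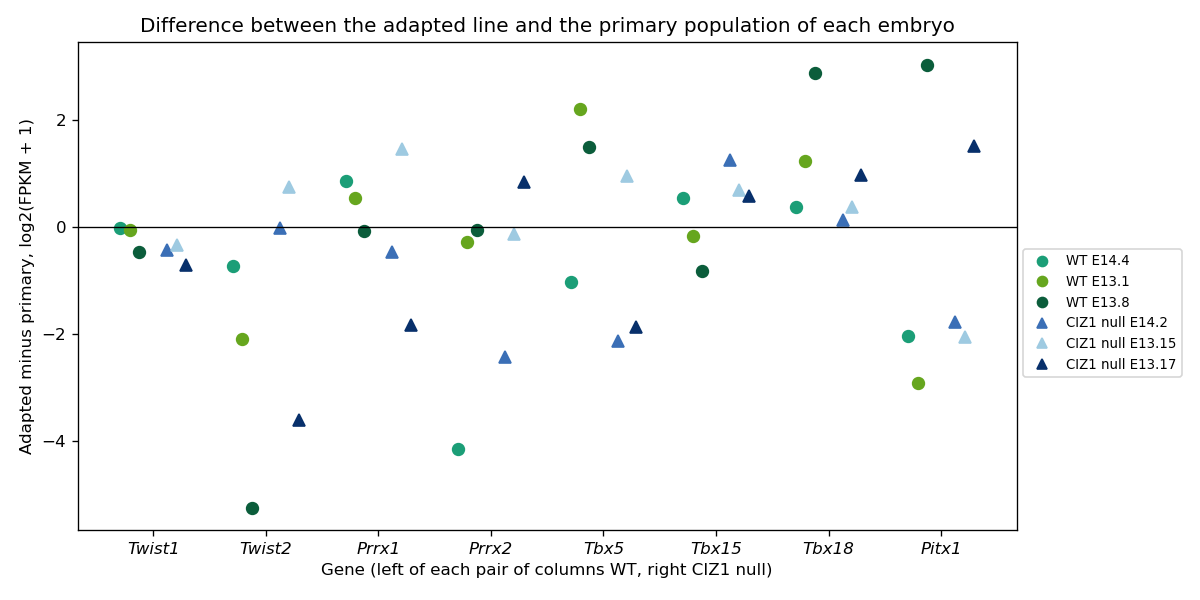
Adapted minus primary difference in log2(FPKM + 1) for 8 genes, with 1 point per embryo (circles WT, triangles CIZ1 null). *Twist1* points lie at or below 0 and *Tbx18* points above 0 for all 6 embryos, while *Twist2*, *Prrx1*, *Prrx2*, *Tbx5* and *Pitx1* lie on both sides of 0.

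The spread between populations of the same group was then set beside that of all units. The SD of log2(FPKM + 1) among the 3 adapted WT lines was 2.41 for *Twist2*, 2.58 for *Prrx2*, 1.77 for *Tbx5*, 1.49 for *Tbx18* and 3.28 for *Pitx1*, and 0.31, 0.27 and 0.51 for *Twist1*, *Prrx1* and *Tbx15*. Hence 5 of 8 members had an SD above 1, as did 10.6% of the 19919 units in that comparison, whose median was 0.36. Among adapted null lines the SD was 2.56 for *Twist2*, 2.02 for *Prrx1*, 1.47 for *Prrx2* and 2.28 for *Pitx1*, and 0.16, 0.97, 0.45 and 0.20 for *Twist1*, *Tbx5*, *Tbx15* and *Tbx18*. There 4 of 8 members exceeded 1, beside 11.2% of 20044 units and a median of 0.36. In primary cells no member exceeded 1 in either genotype, beside 1.52% and 2.31% of units. The units were not matched to the members for level, and the members were chosen with earlier results of these data known.

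An SD larger in adapted than in primary cells was found for 8 of 8 members in WT and 7 of 8 in null cells (all but *Tbx18*). The same held for 77.6% and 72.3% of all units. The adapted *Twist2* SD was larger than that of 99.1% of units in WT and 99.2% in null lines. Pearson's r of log2(FPKM + 1) over all units between populations of a group, at 0.954 to 0.974 in primary and 0.835 to 0.884 in adapted WT cells and 0.937 to 0.963 and 0.829 to 0.888 in null cells, was likewise lower after adaptation.

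**Figure D3:**
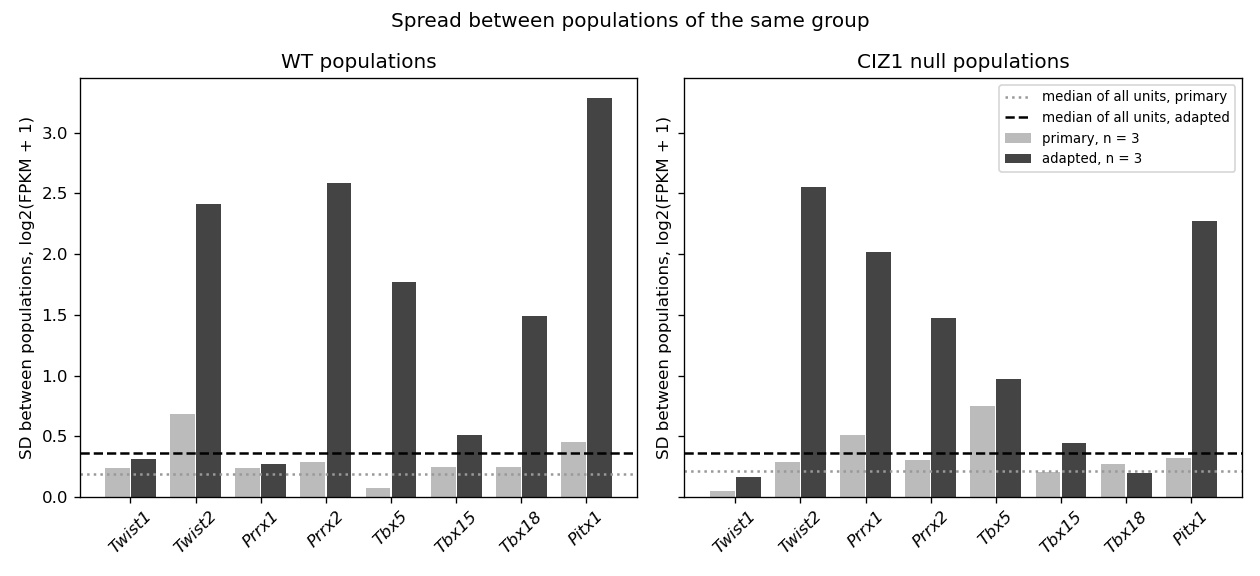
SD of log2(FPKM + 1) between the 3 populations of each group for 8 genes (bars, grey primary and dark adapted), with the median SD of all units as lines. *Twist2*, *Prrx2* and *Pitx1* have adapted SDs of 1.47 or more in both genotypes, while *Twist1* stays at 0.31 or less.

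The effect of adaptation on group means was tested with limma on log2(FPKM + 1), adjusting p over all units with a mean of at least 1 FPKM. In WT cells 0 of 8 members passed an adjusted p of 0.05, whereas 9.55% of 19919 units did (1902 units, 1330 of them lower, or 2063 and 1081 after quantile normalization and 499 with embryo of origin as a block), and 0 of 8 members had an unadjusted p under 0.05 beside 30.6% of all units. Adjusted p ranged from 0.169 to 0.804. The largest fitted differences were those of *Twist2* (-2.69, SE 1.14, adjusted p = 0.169), *Tbx18* (1.50, SE 0.70, adjusted p = 0.201) and *Prrx2* (-1.49, SE 1.18, adjusted p = 0.430). *Twist1* differed by -0.17 (SE 0.23, 95% interval -0.71 to 0.36) and *Tbx15* by -0.14 (SE 0.29, interval -0.84 to 0.55). The median difference of the 8 genes was -0.16, and that of all units -0.05. Groups overlapped for all 8 genes, whereas 38.7% of all units had groups that did not. Differences on this scale understate those of genes with low FPKM, such as *Tbx5* and *Tbx18*.

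Without the adapted WT E14.4 line, 3 members passed the limma test, and calls over all units rose to 2972 from 1902. The members were *Twist2* (-3.94, adjusted p = 0.0274), *Tbx18* (higher in both lines left, adjusted p = 0.0450) and *Tbx5* (1.90, adjusted p = 0.0158). Without the adapted WT E13.8 line, *Pitx1* passed instead (adjusted p = 0.0258), being listed at 0 in both lines left, and 1296 of all units passed. In each of these fits 2 adapted lines were compared with 3 primary populations.

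The only unit of a member to pass in the full WT comparison was the *Prrx1* unit on the other strand. It was at 14.4, 15.3 and 18.0 FPKM in primary and 35.7, 30.5 and 26.8 in adapted WT cells, a limma difference of 0.92 (SE 0.18, adjusted p = 0.0332). The groups did not overlap. It had an adjusted p of 0.0853 with embryo as a block and 0.412 with all 4 groups in a single fit, and between 0.117 and 0.136 when any 1 of the primary WT populations was left out. The unit on the annotated strand differed by 0.45 (SE 0.21, adjusted p = 0.206), and the sum of all units of the locus by 0.53 (SE 0.20, adjusted p = 0.136). Across the 15 populations the 2 *Prrx1* units had an r of 0.961, and the one on the other strand averaged 21.4% of the level of the annotated one. For *Twist1*, *Tbx5*, *Tbx15* and *Tbx18* the same r was 0.948, 0.908, 0.980 and 0.977, which describes values that share libraries and locus.

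**Figure D4:**
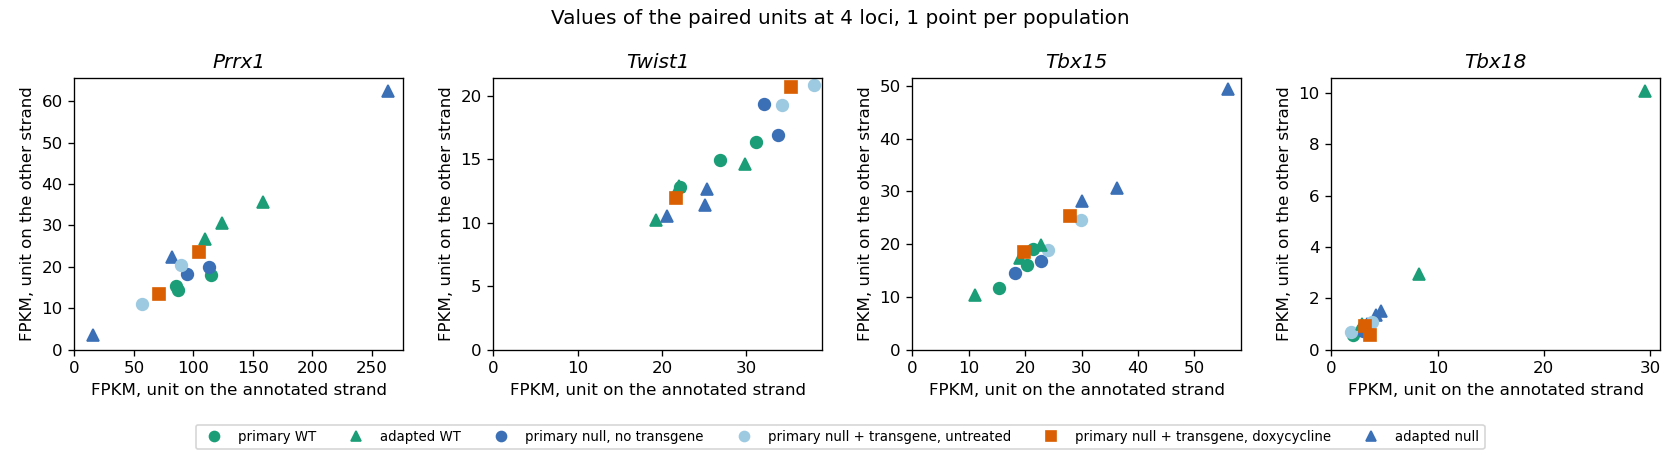
FPKM of the unit on the other strand against FPKM of the unit on the annotated strand for *Prrx1*, *Twist1*, *Tbx15* and *Tbx18*, with 1 point per population and shapes and colours for groups. Both units rise together at each locus; for *Prrx1* the adapted WT lines lie at 26.8 to 35.7 FPKM on the vertical axis, above the primary WT populations at 14.4 to 18.0.

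In CIZ1 null cells 0 of 8 members passed the limma test for adaptation, beside 4.86% of 20044 units (975 units, 695 of them lower, or 852 and 501 after quantile normalization and 10 with embryo as a block), and 2 of 8 had an unadjusted p under 0.05, beside 29.3% of units. These were *Tbx15* (0.84, SE 0.27, adjusted p = 0.104) and *Twist1* (-0.49, SE 0.17, adjusted p = 0.121). *Tbx18* differed by 0.50 (SE 0.22, adjusted p = 0.188). For these 3 genes primary and adapted null populations did not overlap, as for 37.1% of all units tested. The median difference of the 8 genes was -0.53, and that of all units -0.04. Means of *Twist2* (-0.96, SE 1.17), *Prrx1* (-0.27, SE 0.95) and *Prrx2* (-0.57, SE 0.70) had errors as large as the differences. None of the 6 units on the other strand that were tested passed, although those of *Tbx15* (adjusted p = 0.0388) and *Twist1* (adjusted p = 0.0336) did with all 4 groups in a single fit. Without the adapted null E13.17 line *Pitx1* passed (adjusted p = 0.0326), again against lines listed at 0, as did 784 of all units. In that fit the differences of *Twist2* and *Prrx1* changed sign, to 0.51 and 0.79.

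Loss of CIZ1 was compared within each state. In primary cells 0 of 8 members passed the limma test, with adjusted p from 0.808 to 0.981 and 0 of 8 at an unadjusted p under 0.05. Of 19566 units 0.00511% passed (1 unit), and 6.26% had an unadjusted p under 0.05. *Twist1* was the member whose groups did not overlap, with 33.8, 32.2 and 34.3 FPKM in null against 22.1, 31.1 and 27.0 in WT populations (0.32, SE 0.15, adjusted p = 0.808), as for 11.9% of units. The 95% interval of the difference was -0.02 to 0.67 for *Twist1*, -0.30 to 1.29 for *Twist2*, -0.78 to 0.47 for *Prrx1* and -0.79 to 0.19 for *Prrx2*, so a doubling was outside the interval for all of these but *Twist2*.

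In adapted cells 0 of 8 members passed, as against 0.00501% of 19976 units (1 unit). Adjusted p was 0.998 or more for all 8. *Tbx15* alone had an unadjusted p under 0.05 (4.02% of units), with null lines at 56.0, 30.1 and 36.2 FPKM and WT lines at 22.8, 19.0 and 11.1 (1.17, SE 0.36, adjusted p = 0.998 by limma). Its groups did not overlap, as for 8.28% of units. Intervals were wide for the genes that differed between lines of the same group, for example -1.59 to 6.04 for *Twist2* and -2.61 to 3.86 for *Prrx2*.

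Whether adaptation acted differently in the 2 genotypes was tested as an interaction over 12 populations. By limma 0 of 8 members and 0% of 20046 units passed (0 units, with 928 at an unadjusted p under 0.05). Of the members 1 had an unadjusted p under 0.05, *Tbx15* (0.99, SE 0.41, adjusted p = 0.996). The adapted *Tbx15* line was above its parent in all 3 null embryos and in 1 of 3 WT embryos.

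Doxycycline was compared between transgenic null populations. *Twist1* was at 34.3 and 38.1 FPKM without (E13.17 and S13) and 35.4 and 21.7 with doxycycline (S14 and S15), and *Twist2* at 141 and 98.9 without and 94.7 and 163 with it. *Prrx2* was at 49.5 and 31.5 FPKM without and at 165 and 33.1 with doxycycline, so that S14 held the highest *Prrx2* value of the series and S15 lay between the untreated values. *Prrx1* was at 56.7 and 89.5 FPKM without and 70.7 and 105 with it, and *Tbx15* at 24.0 and 29.9 without and 19.8 and 27.9 with it. The 3 lowest genes were at 2.65 and 2.04 against 1.37 and 2.44 FPKM (*Tbx5*), 1.89 and 3.87 against 3.67 and 3.18 (*Tbx18*) and 4.34 and 2.25 against 6.25 and 1.24 (*Pitx1*). Groups overlapped for all 8 genes, but the share of all units whose groups did not overlap was not computed for this comparison. By limma 0 of 8 passed, none at an unadjusted p under 0.05, beside 0.0101% of 19768 units (2 units) and 1.76% at an unadjusted p under 0.05. With 2 populations in each group only large differences could be resolved, and the 95% interval for *Prrx2* was -0.95 to 2.74.

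Among related genes there were few calls in adaptation, beside 9.55% of all units in WT and 4.86% in null cells. At an unadjusted p under 0.05 by limma the shares of all units in adaptation were 30.6% and 29.3%. Of 7 bHLH partners and inhibitors of the TWIST proteins, *Tcf4*, an E protein gene, rose in WT adaptation, from 24.9, 19.7 and 20.6 to 33.4, 45.4 and 51.2 FPKM (0.95, SE 0.21, adjusted p = 0.0435 by limma). With embryo as a block its adjusted p was 0.0964, and the range over single libraries left out was 0.0211 to 0.166. The other 6, *Tcf3*, *Tcf12* and *Id1* to *Id4*, did not pass in any comparison. Of 4 genes for epithelial-mesenchymal transition factors (*Snai1*, *Snai2*, *Zeb1* and *Zeb2*) 0 passed in any comparison, with 1 at an unadjusted p under 0.05 in WT and 2 in null adaptation. Of 24 other mesenchymal and limb patterning factors tested, 0 passed in WT adaptation (3 at an unadjusted p under 0.05) and 1 in null adaptation. This was *Tbx2*, a T-box repressor, which fell from 1.84, 1.70 and 2.03 to 0.0847, 0.153 and 0.35 FPKM (-1.26, SE 0.23, adjusted p = 0.0376, or 0.106 with embryo as a block). *Tbx2* reached the mean of 1 FPKM needed for testing only through its primary values. It passed in 3 of the 7 alternatives that tested it. With a sample left out it was tested in 3 fits and passed in 2. Of 13 limb bud signalling genes tested 0 passed in either adaptation comparison, with 1 at an unadjusted p under 0.05 in each. No gene of these 4 lists passed in the other 4 comparisons. At an unadjusted p under 0.05 by limma, loss of CIZ1 in primary cells had 6 of 24 other patterning factors, 1 of 7 bHLH genes, 0 of 4 transition factors and 1 of 14 signalling genes, beside 6.26% of all units. In adapted cells these counts were 2 of 26, 0 of 7, 1 of 4 and 2 of 14, beside 4.02% of all units. With doxycycline they were 0 of 24, 1 of 7, 0 of 4 and 1 of 12, beside 1.76%. For the interaction they were 1 of 25, 0 of 7, 0 of 4 and 0 of 14, beside 4.63%. Of 10 fibroblast markers 3 passed as lower and 0 as higher in null adaptation, beside 4.86% of all units. These were *Col1a1* (-2.38, SE 0.34, adjusted p = 0.0262), *Col1a2* (-1.16, SE 0.20, adjusted p = 0.0341) and *Vim* (-1.47, SE 0.22, adjusted p = 0.0282). Their adjusted p was 0.0708, 0.0904 and 0.0899 when embryo was a block. *Dcn*, which did not pass, was higher in each adapted null line, at 68.5, 51.1 and 47.7 FPKM before and 993, 800 and 56.8 after. *Des*, an intermediate filament gene of muscle, fell in WT (-2.75, SE 0.32, adjusted p = 0.0122) and in null adaptation (-2.84, SE 0.25, adjusted p = 0.0130), with 0.0401 and 0.0708 under the block. With each of 6 samples left out in turn, the 3 fibroblast markers each passed in 2 of 6 fits, and *Des* in 5 of 6 in WT and 3 of 6 in null adaptation.

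The similarity of levels over the 15 populations was described with Pearson's r of log2(FPKM + 1), which has no test here because the populations share embryos and treatments. Between members it was most negative for *Twist2* and *Tbx18* (-0.83) and for *Twist2* and *Pitx1* (-0.61), and most positive for *Prrx2* and *Pitx1* (0.57). *Twist1* and *Twist2* had an r of 0.38, and *Prrx1* and *Prrx2* of -0.26. Among 11658 units with a mean of at least 5 FPKM, the most similar to *Twist2* was *Gm29100* at the same locus (0.993), followed by the homeobox gene *En1* (0.946) and *Pla2g7* (0.943). For *Pitx1* these were *Lrig3* (0.916), the tendon bHLH gene *Scx* (0.909) and *Apmap* (0.876). The closest to *Twist1* was *Eln*, the elastin gene (0.895), to *Prrx1* *Prim2* (0.953), to *Prrx2* *Tmem50b* (0.911), to *Tbx15* *Rnf130* (0.920), to *Tbx5* *Rint1* (0.875) and to *Tbx18* the unit named *Fndc7* and *Prpf38b* (0.886).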

How the data were processed

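Poly(A)-selected RNA of 15 populations was sequenced from NEBNext Ultra libraries. According to the submitters' processing notes and methods, the authors trimmed reads with cutadapt 1.8.3, aligned them to GRCm38 with HISAT2 2.0.5, assembled and merged transcripts with Cufflinks and deposited Cuffnorm FPKM per transcription unit, which are normalised between libraries and carry no counts. Their Cuffdiff 2.2.1 table holds group means, fold changes, p-values and q-values of their own comparisons and was not used. All value columns were mapped to samples by name, and 0 pairs of samples were identical. Embryos of 12 populations were identified because their FPKM equalled the study's per-line lists (100% of values for the matching embryo). The source name of the E13.17 transgenic sample reads S13, although its title reads S06. The study names 2 transgenic embryos, E13.17 and E14.19, but S13, S14 and S15 could not be matched to them one by one, so the doxycycline comparison was fitted without pairing.

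From the FPKM, log2(FPKM + 1) was computed, units with a mean of at least 1 FPKM over the samples compared were kept, and groups were fitted with limma 3.58.1 in R 4.3.3 (lmFit, eBayes with trend, 2 groups per fit, no covariates). Benjamini-Hochberg adjustment ran over all units tested (threshold 0.05). The procedure was tested on simulated data. Named were all members and, from the lists, genes past the threshold, with further list genes chosen after their values were seen. The members and lists were chosen with earlier results of these data known. Primary and adapted cells of an embryo come from the same animal, so embryo of origin was also fitted as a block. The r of deviations from group means for same-embryo pairs was 0.211, 0.146 and -0.0054 in WT and -0.019, 0.107 and 0.0881 in null cells. Alternatives were a pseudocount of 0.1, no filter or a mean of 5 FPKM, quantile normalization, array weights, a single fit of all groups, other sets of primary null samples, leaving out each sample, and, chosen after seeing the data, summing the units of a locus. Sequences are RefSeq promoters of GRCm38.p6. *Foxc2* and *Tubb3* of the lists were not analysed here. Tables were handled with pandas 2.3.3 under Python 3.11.15, and plots drawn with Matplotlib 3.10.9.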

Additional observations from a re-analysis of the deposited data

How the results depend on the processing

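The number of the 8 genes passing on the annotated strand was 0 in all 6 comparisons under every alternative other than leaving out a sample. Of units on the other strand, *Tbx15* in null adaptation passed with array weights (adjusted p = 0.0353), in the single fit (0.0388) and without the adapted E13.15 line (0.0406), and *Twist1* in the single fit (0.0336). With 1 sample left out the number of genes passing ranged from 0 to 3 in WT adaptation and from 0 to 1 in null adaptation, and was 0 in the other 4 comparisons. The embryo replicate block changed no member's call on the annotated strand, but brought the *Prrx1* unit on the other strand to an adjusted p of 0.0853, *Tcf4* to 0.0964 and *Tbx2* to 0.106. Single samples reversed the sign of uncalled differences: with each left out in turn, the WT values ranged from -2.30 to 0.00039 for *Prrx2* and from -0.35 to 0.14 for *Tbx15*, and the null values from -1.82 to 0.51 for *Twist2*, from -1.22 to 0.79 for *Prrx1* and from -1.10 to 0.27 for *Prrx2*. Counts over all units moved much more. Besides the block (499 and 10 units), WT adaptation gave 1902 units, 988 without a filter, 1145 with the units of a locus summed and 62 to 2972 with 1 sample left out. Null adaptation gave 975, 322 without a filter, 591 with units summed, 1936 with array weights, 2907 in a single fit, 449 with all 4 untreated primary null samples, 30 with the 2 that carry no transgene, and 25 to 2999 with 1 sample left out. The other 4 comparisons had at most 8 units under any alternative, except the interaction without the adapted null E13.15 line (234). The cause was not tested. FPKM without counts give no interval for a value, and the shallowest libraries, at 0.481 and 0.539 of the reference depth, limit the genes near 0.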

Other observations

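The 2 adapted lines with *Pitx1* at 50.5 and 14.4 FPKM, WT E13.8 and null E13.17, also held the highest values of several other listed patterning genes. They were singled out after the values were seen, differ in genotype, and are given as values without a test. The forkhead gene *Foxc1* was at 27.1 and 29.4 FPKM in these lines and at most 5.20 in the other 13 populations. *Foxd1*, another forkhead gene, was at 16.7 and 9.58 FPKM there and at most 1.73 elsewhere.

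*Dlx5* was at 1.82 and 2.23 FPKM in the same lines and at most 0.437 in the others. *Tbx4*, the hindlimb T-box gene, was at 8.28 and 3.32 FPKM there, at 1.61 in adapted WT E13.1, and listed at 0 in the 3 other adapted lines, where *Pitx1* was also listed at 0. In primary populations *Tbx4* ranged from 0.652 to 5.43 FPKM.

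The lines were low for other genes. *En1* was at 0.208 and 0.238 FPKM, against 2.13 to 20.4 in the other 13 populations. *Twist2*, at 2.82 and 10.6 FPKM, had its lowest values of the series in these lines, and the next lowest, 15.8, was that of adapted WT E13.1. The lines differed from each other in *Prrx1* (110 and 15.3 FPKM), *Tbx5* (6.27 and listed at 0), *Tbx15* (11.1 and 36.2) and *Tbx18* (29.6 and 4.71).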
